A study of Arabidopsis thaliana with 4 samples.

Results

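The 45 genes described here are the protein-coding genes of the *Arabidopsis thaliana* chloroplast genome that make parts of the photosynthetic apparatus. They comprise 5 *psa* genes of photosystem I, 15 *psb* genes of photosystem II, 6 *pet* genes of the cytochrome b6f complex, 6 *atp* genes of the ATP synthase, 12 *ndh* genes of the NADH dehydrogenase-like complex and *rbcL*, the large subunit of Rubisco. They were listed by locus number from the 32833 genes in the count tables, and all 45 passed the filter on low counts. The tables hold locus numbers only. The gene names used here are the standard chloroplast nomenclature for those numbers, and each locus number is given where its gene is first described.

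Poly(A)-selected RNA was sequenced from whole 14-day seedlings of *mettl4-1*, which carries a T-DNA in the first exon of *METTL4*, and of its wild type Col-0, with 2 libraries (replicates 1 and 2) per genotype. *METTL4* encodes the methyltransferase that places N6-2′-O-dimethyladenosine on U2 snRNA, and *mettl4-1* is a single insertion line. The question addressed was which transcripts change when METTL4 is missing. Seedlings of both genotypes were grown on MS medium with 16 h of light, at 22 °C by the sample records. The study's methods give a slightly lower temperature for the plants grown for RNA. The growth protocol gave 8 h of dark for every sample, whereas the source label read 10 h and 11 h for *mettl4-1* replicates 1 and 2, and 8 h and 9 h for Col-0 replicates 1 and 2. These 4 hours are consecutive numbers and may be a clerical error in the label, and if they are real, day length cannot be told apart from genotype. The labels do not say whether replicates were separate cultures, so the p-values measure only the spread between these samples.

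The chloroplast keeps a small circular genome that supplies core subunits of the photosynthetic complexes, while the nucleus supplies the remaining subunits and most regulators. Chloroplast genes are largely transcribed as long multi-gene RNAs that are cut into smaller ones. Most mature chloroplast mRNAs carry no long poly(A) tail, in contrast to nuclear mRNAs, and a library made by poly(A) capture holds only a small part of them.

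Because the libraries were made by capture of poly(A), the longest uninterrupted run of A on the coding strand was found for each gene in the RefSeq sequence (TAIR10.1, chloroplast genome of 154478 bases). Windows of 30 bases around that run, in capitals, are shown for 3 genes to which the results return: *atpB* (minus strand, chrPltd:54091-54120, in the coding sequence), *petD* (plus strand, chrPltd:76726-76755, in the intron) and *psaA* (minus strand, chrPltd:41784-41813, in the coding sequence).

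atpB: tcgatacgtgAAAAAAAAAAcctgggacgt

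petD: ttttggactAAAAAAAAAAAAgaaaataat

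psaA: tagggatcccatAAAAActtctttcgagga

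The run was 10 bases long in *atpB*, 12 in *petD* and 5 in *psaA*.

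Libraries held 51919219 and 50862075 counts in *mettl4-1* and 54709289 and 66003824 in Col-0. *METTL4* (AT1G19340) had 35 and 46 counts in *mettl4-1*, against 355 and 413 in Col-0, a log2 fold change of -2.99 ± 0.14 (SE; edgeR quasi-likelihood test, adjusted p = 8.6e-07). The libraries of a genotype did not match each other equally well. By an exact binomial test on the counts with Benjamini-Hochberg adjustment, 1112 of 22361 genes differed between the *mettl4-1* replicates and 228 of 22588 between the Col-0 replicates. That test allows for counting noise only, so it also counts any ordinary spread between samples. Each *mettl4-1* library is given on its own below, since their shares of organelle RNA differ. The 3 leaf markers summed to 17103 and 17924 CPM (counts divided by the library's TMM-scaled total and multiplied by 1e6) in *mettl4-1* and 18924 and 18802 CPM in Col-0, and the 5 root markers to 84.6 and 86.0 CPM against 88.2 and 87.8 CPM. The 4 flower markers summed to 2.10 and 2.16 CPM against 1.84 and 1.80 CPM. The 5 seed markers summed to 3.11 and 2.86 CPM in *mettl4-1* against 62.3 and 61.2 CPM in Col-0, with *SESA1* and *SESA3* at 0 in both *mettl4-1* libraries. The part of these differences in the results below was not tested.

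The chloroplast photosynthesis genes held a larger share of the counts in both *mettl4-1* libraries than in either Col-0 library, and the excess was greater in replicate 1. The 45 genes held 1.25% of all counts in *mettl4-1* replicate 1 (95% exact Clopper-Pearson interval 1.251% to 1.257%) and 0.482% in replicate 2 (0.480% to 0.484%), against 0.361% (0.359% to 0.362%) and 0.403% (0.402% to 0.405%) in Col-0 replicates 1 and 2. These intervals cover counting error only. Both *mettl4-1* shares lay above both Col-0 shares, and the gap between the *mettl4-1* libraries was wider than the gap between *mettl4-1* replicate 2 and either Col-0 library. The means were 0.868% ± 0.546 in *mettl4-1* and 0.382% ± 0.0301 in Col-0 (SD, n = 2 each; two-sided exact permutation p = 0.333, the smallest that 2 against 2 libraries can give).

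Among single genes, 31 of the 45 rose in *mettl4-1* by at least 1.5-fold at an unadjusted p under 0.05 and none fell, by edgeR's quasi-likelihood test over 21673 genes. Over all genes tested, 0.937% were called higher and 0.683% lower by the same rule. At an adjusted p under 0.05, 19 of the 45 were higher, against 0.96% of all genes, and none was lower. The median log2 fold change of the 45 genes was 1.69, against 0.0015 over all genes. In 32 of the 45 both *mettl4-1* libraries lay above both Col-0 libraries, in 1 (*ndhJ*) both lay below, and in the other 12 the genotypes overlapped. Over all genes, both *mettl4-1* libraries lay above both Col-0 libraries in 22.8%. The matching share with both below was not counted, so *ndhJ* has no background to be set against. In bulk seedling RNA, a change in the number of cells or chloroplasts and a change in RNA per cell or chloroplast cannot be told apart.

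The 2 *mettl4-1* libraries differed widely in the size of the effect. In the fits to 1 of them below, the spread comes from the Col-0 pair and from the trend of spread over all genes. The single *mettl4-1* library is assumed to vary like Col-0. These calls therefore compare that library with Col-0 and do not measure variation within *mettl4-1*. With replicate 1 alone against both Col-0 libraries, 37 of the 45 genes were called higher and none lower, against 1.18% of all genes called higher. With replicate 2 alone, 22 were called higher and 1 (*petN*) lower, against 0.847% and 0.838% of all genes. These 22 were all among the 31 called with both libraries, and the remaining 9 were not called with replicate 2 alone. At an adjusted p under 0.05 (edgeR), replicate 2 alone had 24 of the 45 higher and 3 lower, against 1.77% and 3.03% of all genes. The 3 were *atpB*, *atpE* and *ndhK*, with log2 fold changes of -0.42, -0.30 and -0.12. The median log2 fold change was 2.37 with replicate 1 and 0.59 with replicate 2. Replicate 1 exceeded replicate 2 in 44 of the 45 genes, the exception being *psaJ*, and the median log2 ratio between them was 1.68. The corresponding median between the Col-0 libraries was 0.0019, with single genes between -1.28 and 0.92. Paired with different Col-0 libraries, so that no library is shared, the log2 ratios of *mettl4-1* to Col-0 in replicate 1 and in replicate 2 ranked the 45 genes much alike (Spearman's rho = 0.841, Pearson's r = 0.813, across genes, which are not independent replicates).

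**Figure D1:**
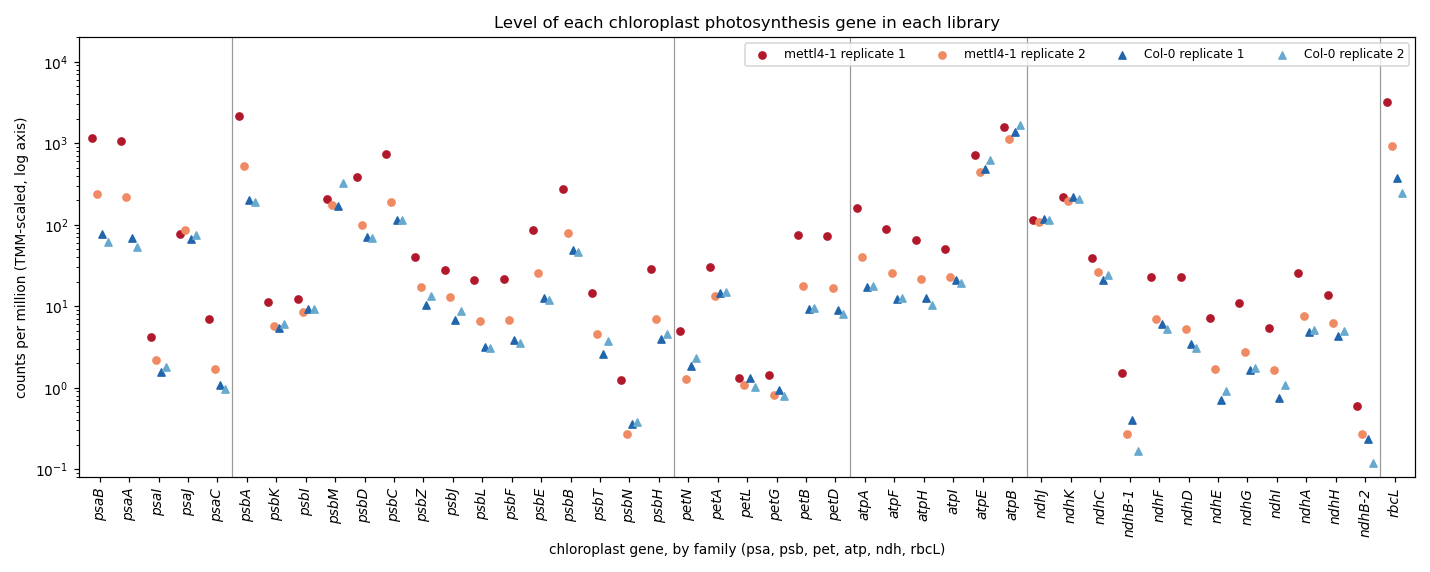
Level of each of the 45 genes in each library, in TMM-scaled CPM on a log axis, ordered by family and by position in the genome; circles are the 2 *mettl4-1* libraries and triangles the 2 Col-0 libraries. *mettl4-1* replicate 1 is the highest point for most genes, while all 4 libraries lie close together for some, such as *ndhJ*, *ndhK* and *petL*.

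The photosystem I genes included the 2 with the largest fold change of the 45. *psaA* (ATCG00350) and *psaB* (ATCG00340) encode the paired reaction centre proteins that hold the primary donor P700. *psaA* had 1057 and 217 CPM in *mettl4-1* replicates 1 and 2, against 69.5 and 52.8 CPM in Col-0 replicates 1 and 2. *psaB* had 1151 and 238 CPM in *mettl4-1*, against 77.7 and 62.2 CPM in Col-0. For both genes the lower *mettl4-1* library lay well above either Col-0 library, and the log2 fold changes were 3.38 ± 0.53 for *psaA* (SE; edgeR adjusted p = 0.0076) and 3.31 ± 0.52 for *psaB* (edgeR adjusted p = 0.0078). Over the Col-0 mean, *psaA* was 17.3-fold higher in *mettl4-1* replicate 1 and 3.55-fold higher in replicate 2. The small subunit gene *psaJ* (ATCG00630) was at the other end of the family, with 77.9 and 85.1 CPM in *mettl4-1* and 67.1 and 74.0 CPM in Col-0. Its log2 fold change of 0.21 ± 0.05 was under the 1.5-fold limit (edgeR adjusted p = 0.057), and it was the only one of the 45 that was higher in replicate 2 than in replicate 1. *psaC* (ATCG01060), which encodes the iron-sulphur subunit that passes electrons to ferredoxin, and the small subunit gene *psaI* (ATCG00510) were called higher. Their log2 fold changes were 2.06 ± 0.50 and 0.93 ± 0.26 (edgeR adjusted p = 0.060 and 0.095). The family median was 2.06, with 4 of 5 genes called higher and 2 with an adjusted p under 0.05.

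Of the 15 photosystem II genes 11 rose, none was called lower, and the family median was 1.80. At an adjusted p under 0.05 (edgeR), 9 were higher. *psbA* (ATCG00020) encodes D1, the reaction centre protein that is damaged and replaced in the light. It had 2172 and 526 CPM in *mettl4-1*, against 203 and 189 CPM in Col-0. The Col-0 libraries were close together and both *mettl4-1* libraries were above them, with a log2 fold change of 2.78 ± 0.46 (SE; edgeR adjusted p = 0.0096). The second reaction centre gene, *psbD* (ATCG00270, D2), had 381 and 100 CPM in *mettl4-1* against 70.4 and 67.8 CPM in Col-0. The inner antenna genes *psbC* (ATCG00280, CP43) and *psbB* (ATCG00680, CP47) had log2 fold changes of 2.02 ± 0.43 and 1.91 ± 0.40. Both cytochrome b559 genes were higher, *psbE* (ATCG00580) by 2.17 ± 0.41 and *psbF* (ATCG00570) by 1.94 ± 0.40 on the log2 scale.

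*psbM* (ATCG00220), a small subunit at the interface of the photosystem II dimer, had the lowest fold change of the 45. It had 210 and 174 CPM in *mettl4-1*, against 169 and 321 CPM in Col-0. The *mettl4-1* libraries lay between the Col-0 libraries, and the log2 fold change of -0.35 ± 0.21 did not pass the test (edgeR adjusted p = 0.47). Its sign rested on 1 Col-0 library: it was -0.74 without Col-0 replicate 1 and 0.18 without Col-0 replicate 2. The other 3 *psb* genes not called were *psbI* (ATCG00080), *psbK* (ATCG00070) and *psbN* (ATCG00700), with log2 fold changes of 0.19, 0.56 and 1.01. *psbN* lies on the strand opposite to its neighbours *psbT* and *psbH*, and its counts of 62 and 14 in *mettl4-1* and 20 and 25 in Col-0 cannot be told apart from reads of those neighbours where strand was not used, which the sources used here do not state.

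The cytochrome b6f family had the lowest median, 0.56, and only 2 of its 6 genes rose. These were *petB* (ATCG00720, cytochrome b6) and *petD* (ATCG00730, subunit IV). *petB* had 75.4 and 17.8 CPM in *mettl4-1*, against 9.29 and 9.61 CPM in Col-0, a log2 fold change of 2.30 ± 0.49 (SE; edgeR adjusted p = 0.033). *petD* had 72.0 and 16.7 CPM in *mettl4-1* against 9.06 and 8.09 CPM in Col-0, a log2 fold change of 2.37 ± 0.50 (edgeR adjusted p = 0.030). In both, the 2 Col-0 libraries lay within 1 CPM of each other and below both *mettl4-1* libraries. *petA* (ATCG00540), which encodes cytochrome f of the same complex, had 30.1 and 13.4 CPM in *mettl4-1* against 14.6 and 14.9 CPM in Col-0. Only replicate 1 was above Col-0 for *petA*, and the gene did not pass the test (log2 fold change 0.56 ± 0.26; edgeR adjusted p = 0.34). The genes of the small subunits were near the bottom of the range of counts: *petL* (ATCG00590) had 67 and 56 counts in *mettl4-1* against 72 and 67 in Col-0, with a log2 fold change of 0.07 ± 0.21. *petN* (ATCG00210) split the *mettl4-1* libraries, with 4.98 and 1.26 CPM against 1.84 and 2.34 CPM in Col-0. The median of the *pet* genes was -0.080 without *mettl4-1* replicate 1, so the direction of this family rested on that library.

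The ATP synthase genes divided by position. *atpA* (ATCG00120), the alpha subunit of the catalytic head, had 162 and 40.3 CPM in *mettl4-1*, against 17.3 and 17.5 CPM in Col-0, a log2 fold change of 2.54 ± 0.47 (SE; edgeR adjusted p = 0.017). *atpB* (ATCG00480), the beta subunit of the same head, had 1569 and 1139 CPM in *mettl4-1*, against 1371 and 1676 CPM in Col-0, a log2 fold change of -0.17 ± 0.12 (edgeR adjusted p = 0.56). The alpha subunit gene was thus above Col-0 in both *mettl4-1* libraries, while the libraries overlapped for the beta subunit gene. *atpE* (ATCG00470), the epsilon subunit, whose gene overlaps the end of *atpB*, had 723 and 450 CPM in *mettl4-1* against 484 and 621 CPM in Col-0. The membrane subunit genes *atpF* (ATCG00130), *atpH* (ATCG00140) and *atpI* (ATCG00150) lie beside *atpA* and were all called higher. Their log2 fold changes were 2.18, 1.91 and 0.86 (edgeR adjusted p = 0.019, 0.022 and 0.12). The family median was 1.39, with 4 of 6 genes called higher and *atpB* and *atpE* the exceptions. An adjusted p under 0.05 was reached by 3 of the 6.

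In the NADH dehydrogenase-like complex, which returns electrons from photosystem I to the plastoquinone pool, 9 of 12 genes rose and the median was 1.55. Only 2 of the 12 had an adjusted p under 0.05 (edgeR). *ndhE* (ATCG01070) had 7.22 and 1.69 CPM in *mettl4-1*, against 0.709 and 0.901 CPM in Col-0, a log2 fold change of 2.45 ± 0.54 (SE; edgeR adjusted p = 0.039). *ndhK* (ATCG00430), the most abundant of the family by CPM, had 219 and 197 CPM in *mettl4-1* and 221 and 209 CPM in Col-0. *ndhJ* (ATCG00420) had 114 and 109 CPM in *mettl4-1* and 117 and 114 CPM in Col-0. The log2 fold changes of *ndhK* and *ndhJ* were -0.05 ± 0.05 and -0.05 ± 0.03, with the smallest SE among the 45 genes. Their neighbour *ndhC* (ATCG00440) had a log2 fold change of 0.53 ± 0.14, just under the 1.5-fold limit. *ndhB* is present as 2 identical copies in the inverted repeat. The copy ATCG00890 had 76 and 14 counts in *mettl4-1* against 22 and 11 in Col-0, and the copy ATCG01250 had 30 and 14 against 13 and 8. Reads cannot be placed between these copies, so their calls (log2 fold changes of 1.69 and 1.31) are uncertain, and ATCG00890 had a log2 fold change of -0.003 without *mettl4-1* replicate 1.

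*rbcL* (ATCG00490), the only Rubisco gene of the chloroplast, had 3213 and 937 CPM in *mettl4-1*, against 371 and 242 CPM in Col-0. Both *mettl4-1* libraries were above both Col-0 libraries, and the log2 fold change was 2.76 ± 0.43 (SE; edgeR adjusted p = 0.0069). In *mettl4-1* replicate 1 it was the most abundant of the 45 genes by CPM, whereas in *mettl4-1* replicate 2 and in both Col-0 libraries *atpB* was. With 95% identity over at least 50 bases as the rule, 39.8% of the *rbcL* span also occurs in the mitochondrial genome and 42.8% in the nuclear genome of the reference, and 47.6% and 46.9% of *psbA* do. In all, 11 of the 45 genes share more than 1% of their span with one of these genomes, and *atpI* is present whole in the nuclear genome. Values for these genes depend on how reads with several matches were treated.

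The 6 transcripts that were most abundant per kb of coding sequence in Col-0 were not among those that rose in *mettl4-1*. The Col-0 mean was 2334 CPM per kb for *psbM*, 1384 for *atpE*, 1018 for *atpB*, 523 for *psaJ*, 317 for *ndhK* and 242 for *ndhJ*. None of the 6 was called, and their log2 fold changes were between -0.35 and 0.21. *rbcL* and *psbA* came next, at 213 and 185 CPM per kb in Col-0, and were among the 4 with the largest fold change. The 6 genes together held 0.284% and 0.218% of all counts in *mettl4-1* replicates 1 and 2, and 0.244% and 0.304% in Col-0 replicates 1 and 2, so that the libraries overlapped. The other 39 genes held 0.970% and 0.264% in *mettl4-1*, against 0.117% and 0.0993% in Col-0. The 6 genes made up 22.6% and 45.3% of the reads on the 45 genes in *mettl4-1*, against 67.6% and 75.4% in Col-0. This set of 6 was picked after its values were seen and was not tested. Over all 45 genes the log2 fold change and the Col-0 level per kb had a Spearman's rho of -0.283 (Pearson's r = -0.475). The Col-0 level enters both values, and the 6 genes were ranked by it, so a negative relation is partly built in. Several coding sequences are shorter than a sequenced fragment (the smallest is 90 bases), so levels per kb are rough for the smallest genes.

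**Figure D2:**
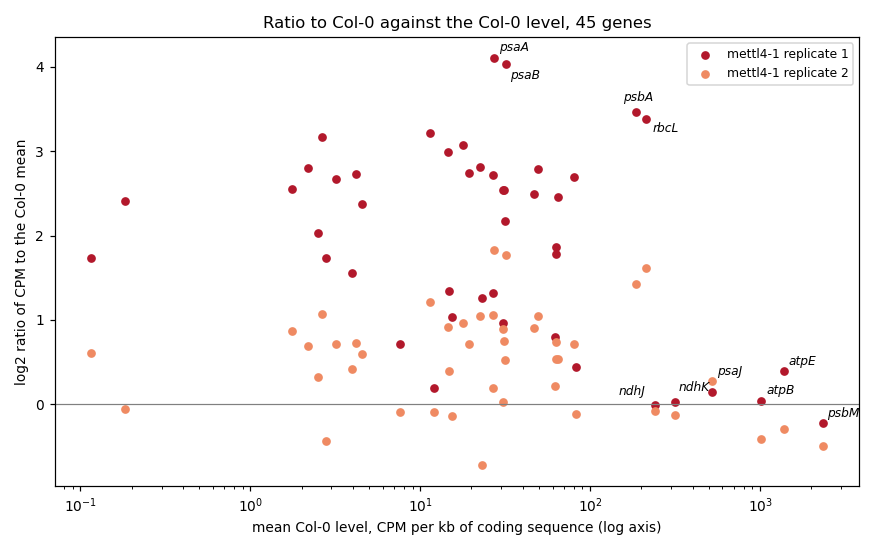
Log2 ratio of CPM in each *mettl4-1* library to the Col-0 mean (vertical axis), against the Col-0 mean in CPM per kb of coding sequence (log axis), for the 45 genes. The 6 genes on the right, between 242 and 2334 CPM per kb, lie near 0 in both libraries, while *psbA* and *rbcL*, at 185 and 213 CPM per kb, lie far above it. The Col-0 mean enters both axes.

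Among genes that lie next to each other on the same strand, some groups had nearly equal fold changes and others formed gradients. With gaps of up to 600 bases, a limit set after the values were seen, 33 of the 45 genes fell into 10 groups. Log2 fold changes spanned 0.07 in *psaA-psaB*, 0.22 in *psbD-psbC* and 0.26 in *atpB-atpE*. *psbD* overlaps *psbC* in sequence, and *atpE* overlaps *atpB*. The widest span of a group was 1.68, in *atpI-atpH-atpF-atpA*, and all 45 genes spanned 3.73. A span grows with the number of genes, so it does not compare pairs with larger sets. In *atpI-atpH-atpF-atpA*, listed in the direction of transcription, the log2 ratio to the Col-0 mean was 1.32, 2.49, 2.81 and 3.22 in *mettl4-1* replicate 1 and 0.19, 0.91, 1.05 and 1.21 in replicate 2. The order of the 4 genes was thus the same in both *mettl4-1* libraries, with the last gene highest. The whole span of the first gene, *atpI*, also occurs in the nuclear genome, and none of *atpH*, *atpF* and *atpA* does. The low end of this series therefore depends on how reads with several matches were treated. In *psbB-psbT-psbH-petB-petD* the last gene was also the highest, at 3.07 in replicate 1 and 0.96 in replicate 2, and the first gene was at 2.54 and 0.75. In *psbE-psbF-psbL-psbJ* the last gene was the lowest, at 1.86 and 0.74, so no single direction held for all groups. In the group of 7 that runs from *ndhH* (ATCG01110) to *ndhD* (ATCG01050), the first gene was the lowest, at 1.56 and 0.41, and *ndhE* was the highest, at 3.16 and 1.07. A shared reference, the Col-0 mean, enters both series of ratios.

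**Figure D3:**
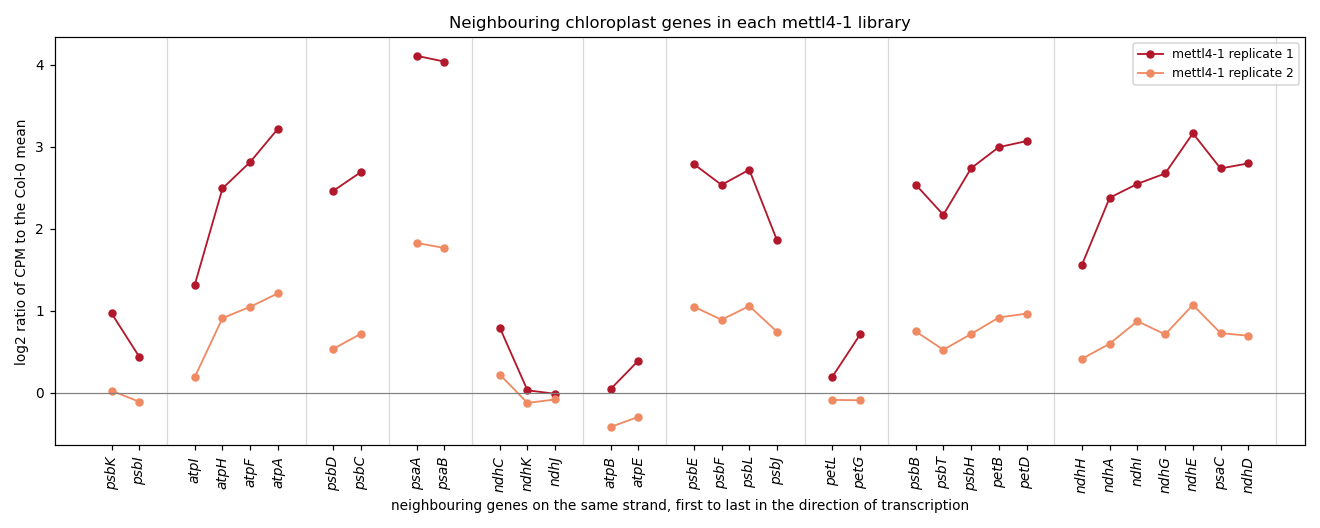
Log2 ratio of CPM in each *mettl4-1* library to the Col-0 mean for the 10 groups of neighbouring genes, each drawn first to last in the direction of transcription. Lines for replicate 1 lie above those for replicate 2 and bend alike in most groups, with *atpI-atpH-atpF-atpA* spanning 1.32 to 3.22 in replicate 1 and 0.19 to 1.21 in replicate 2, and *ndhK* at 0.03 in replicate 1 and -0.13 in replicate 2.

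Sequence features that the choice of genes did not use had weak or moderate rank correlations with the fold change. Across the 45 genes, Spearman's rho with the log2 fold change was 0.398 for coding length and 0.234 for GC content of the coding sequence. For the longest run of A, counted over the gene and the 150 bases after it, it was -0.139. A run of at least 9 A was found in 8 genes, of which 5 (*psbM*, *ndhJ*, *ndhC*, *atpE* and *atpB*) had log2 fold changes under 1 and 3 (*petD*, *ndhD* and *ndhA*, ATCG01100) had values of 1.74 to 2.37. The median log2 fold change was 0.31 in these 8 genes and 1.80 in the 37 with shorter runs. *psbM*, *ndhJ*, *atpE* and *atpB* were also among the 6 genes most abundant per kb in Col-0. The part of these runs in the fold changes was not tested. The run of 12 in *petD* and the run of 10 in *atpB* shown above thus belong to a gene that rose and a gene that did not. They are not like cases, since the *petD* run lies in the intron and the *atpB* run in the coding sequence. The run of 9 in *ndhA* also lies in an intron or at an exon border. Spliced mRNA lacks introns, and whether reads came from spliced RNA was not tested. The window and the limit of 9 were chosen after the values were seen. Other features, such as the A content and the position in the genome, were also looked at and are not shown. The letters TTGACA, searched on both strands in the 250 bases before each gene, occurred for 6 of the 45 genes (13.3%) and for 15 of all 85 chloroplast protein-coding genes (17.6%). TATAAT occurred for 20 of the 45 (44.4%) and 35 of the 85 (41.2%). The windows of close neighbours overlap.

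Ribosomal RNA, which likewise carries no long poly(A) tail, was also higher in *mettl4-1*, and more so in replicate 1. Nuclear 18S ribosomal RNA took 3.65% and 1.25% of all counts in *mettl4-1* replicates 1 and 2, against 0.495% and 0.369% in Col-0. The chloroplast ribosomal RNA loci took 0.432% and 0.0524% in *mettl4-1* against 0.0125% and 0.0119% in Col-0, and all 6 of these loci that were tested rose, with a median log2 fold change of 3.68. U2 snRNA genes, the substrate of METTL4, summed to 4.29 and 4.49 CPM in *mettl4-1* and 3.04 and 3.42 CPM in Col-0, with no excess in replicate 1 over replicate 2. These sums rest on only 217 and 231 counts in *mettl4-1* and 167 and 228 in Col-0. The lowest adjusted p of a U2 gene was 0.37 (edgeR), so no rise was called for any of them. Of the 152 mitochondrial genes listed, only 39 passed the filter on low counts. Among these 39, 29 rose and none fell, with a median log2 fold change of 1.70, against 1.69 for the 45 chloroplast genes. A gene can pass that filter through the genotype in which it is higher, so these values describe the tested genes only. The part of these RNA classes in the rise of the photosynthesis genes was not tested.

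The other chloroplast genes, which code mostly for ribosomal proteins, RNA polymerase and tRNAs, had a lower median than the photosynthesis genes. Of 80 listed, 52 passed the filter on low counts. Among these 52, 19 were called higher and none lower, and the median log2 fold change was 0.46. A further fit scaled counts to the sum over all chloroplast genes other than ribosomal RNA. It moved the median of all genes to -0.74. The 45 genes themselves make up most of that sum. They held 1.25% of all counts in *mettl4-1* replicate 1, against 0.189% for the other chloroplast genes, and 0.361% against 0.154% in Col-0 replicate 1. This scaling set the 45 genes largely against their own total, so it cannot show whether they rose as a set. With it, 4 of the 45 photosynthesis genes were called higher, against 21 of 21673 genes. These were *psaA*, *psaB*, *psbA* and *rbcL*, with log2 fold changes of 2.195, 2.13, 1.64 and 1.65, although none of the 4 had an adjusted p under 0.05 (edgeR adjusted p = 0.50 for each).

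Of 48 nuclear genes for subunits of the same complexes that were tested, none was called in either direction, and the median log2 fold change was -0.10, with single genes between -0.33 and 0.06. At an adjusted p under 0.05 with no limit on fold, 23 were lower and none higher (edgeR), against 1.87% of all genes lower by that rule. *PSAG* and *PSAF*, both photosystem I subunits, had the lowest values, -0.33 and -0.29 (edgeR adjusted p = 0.00024 and 5.8e-05). In *mettl4-1* replicates 1 and 2 the median log2 ratio to Col-0 of these 48 genes was -0.14 and -0.091, against 2.38 and 0.60 for the 45 chloroplast genes.

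**Figure D4:**
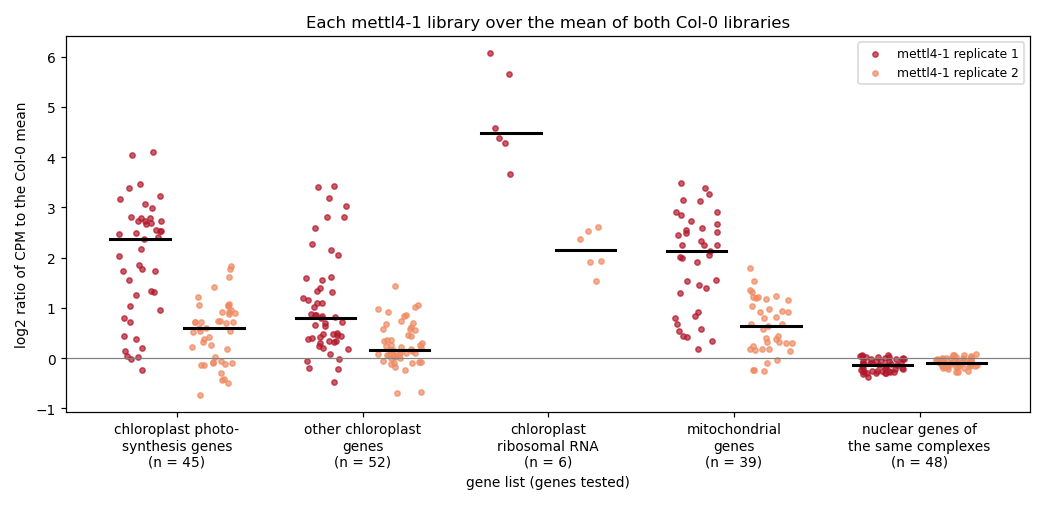
Log2 ratio of CPM in each *mettl4-1* library to the Col-0 mean for the 45 chloroplast photosynthesis genes and 4 other lists; points are genes that were tested and black bars are medians. Medians for replicates 1 and 2 are 2.38 and 0.60 for the photosynthesis genes, 0.81 and 0.17 for other chloroplast genes, 4.48 and 2.16 for chloroplast ribosomal RNA, 2.13 and 0.63 for mitochondrial genes, and -0.14 and -0.091 for nuclear genes of the same complexes.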

How the data were processed

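Raw read counts per gene were deposited for 4 libraries. The authors prepared them with a stranded poly(A) mRNA kit, trimmed reads with cutadapt 3.5, aligned them to TAIR10 with HISAT2 2.2.1, kept high-quality alignments with SAMtools 1.13 and counted genes with featureCounts 2.0.1. The mapping-quality limit and the strand, overlap and multi-mapping settings are not given in the sources used here. The deposited column for *mettl4-1* replicate 2 carries the name of replicate 1 and was assigned by its sample record. Other columns of per-sample values were not present (0).

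Genotypes were compared with edgeR 4.0.16 in R 4.3.3 (TMM, filterByExpr with a minimum count of 10, quasi-likelihood test, genotype as the only term). CPM were scaled by TMM. A gene was called at 1.5-fold and unadjusted p under 0.05, the thresholds of the study's methods; adjusted p-values are Benjamini-Hochberg over all 21673 genes. The floor of 3 counts is 0.0455 to 0.0590 CPM. DESeq2 1.42.0, other scalings and filters, and leaving out each library were alternatives, and the scripts were tested on simulated data. Genes named with full values were *METTL4*, *rbcL*, both *ndhB* copies and, in each family, the most abundant gene and those with the highest and lowest fold change; others were added after their values were seen. Names of chloroplast loci, ribosomal RNA loci included, come from standard nomenclature, since neither the tables nor the reference pairs them with the locus numbers; as a check, RefSeq lists the same 45 names and the locus numbers follow the order of their positions. The genes and lists were chosen with earlier results of these data known.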

Additional observations from a re-analysis of the deposited data

How the results depend on the processing

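Of 118 values of the 17 genes named by rule, under RLE size factors, no filter on low counts, at least 10 counts in every library, DESeq2, the replicate block, nuclear scaling and plastid scaling, 116 kept their direction. Of the 118, 108 also stayed on the same side of the thresholds for a call, and 8 lost a call, 6 of them with plastid scaling. Both *ndhB* copies lost their calls with DESeq2 as well. The exceptions in direction came with plastid scaling, which gave *psaJ* -0.51, *petL* -0.76 and the *pet* median -0.48, but also moved the median of all genes to -0.74. Relative to that median they were 0.24, -0.016 and 0.27. The median of the 45 genes was 1.69 and lay between 0.59 and 2.37 when 1 library was left out. Over that of all genes it stood 1.68 higher, and 1.26 higher with plastid scaling. A scaling shifts all genes of a single library alike, but by a different amount in each library. In a fit over unlike libraries, differences from the median of all genes can therefore still change, as from 1.68 to 1.26 here. Such differences, those of *psaJ*, *petL* and the *pet* median included, do not test which scaling is right. The count called higher was 31. It was 4 with plastid scaling, 19 with adjusted p and 1.5-fold, 25 with DESeq2, and 22 to 37 without 1 library. The count called lower was 0 and reached 1 without Col-0 replicate 1 (*psbM*) or *mettl4-1* replicate 1 (*petN*). The count at adjusted p under 0.05 was 19, and became 31 with no filter, 5 with DESeq2, 30 with the replicate block, 0 with plastid scaling and 27 to 39 without 1 library (24 higher and 3 lower without *mettl4-1* replicate 1, 28 higher and 1 lower, *psbM*, without Col-0 replicate 1, and all higher otherwise); the cause was not tested. DESeq2 gave no adjusted p for some of the 45 genes, such as *psbK* and *psbL*, so its 5 is not a count out of all 45. Replicate numbers marked no pairing in the labels, and same-numbered libraries did not deviate together (correlation 0.0042). Over all genes 351 were called (203 higher, 148 lower), against 223 with DESeq2 (123 higher, 100 lower), 145 with plastid scaling (21 higher, 124 lower), 214 at 2-fold and 138 with adjusted p and 1.5-fold. Leaving out 1 library reversed *psbM* (-0.74 to 0.18), *petL* (-0.12 to 0.26), *atpB* (-0.42 to 0.042), *ndhK* (-0.12 to 0.028), *ndhB* ATCG00890 (-0.003 to 2.45) and the *pet* median (-0.080 to 1.134); *ndhB* ATCG01250 stayed above 0 and lost its call without *mettl4-1* replicate 1 or Col-0 replicate 2. The difference in the share of all counts on the 45 genes was 0.486 percentage points, and 0.0995 without *mettl4-1* replicate 1. With 2 libraries per genotype, 1 of them far from the other, the size of these changes is poorly fixed.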
